A study of Mus musculus with 12 samples.

Results

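The pyruvate dehydrogenase complex and the enzymes that switch it off and on were examined through 10 genes, taken by exact symbol from the 21936 genes listed in the libraries. They were Pdha1, Pdhb, Dlat and Pdhx for subunits of the complex, Pdk1, Pdk2, Pdk3 and Pdk4 for its kinases, and Pdp1 and Pdpr for its phosphatase and the regulatory subunit of that phosphatase. All 10 were found, and all 10 passed the filter of at least 1 TPM in at least 3 libraries (TPM is a length-corrected share of the transcripts in a library). The study compared polyadenylated RNA of skeletal muscle from wild-type C57BL/6N mice with that of PTRF knockout mice of the same strain, both aged 3 months. PTRF, now called cavin 1, coats caveolae, and the labels give muscular dystrophy as the disease state of the knockout animals. The knockout allele is not described, and neither is whether each numbered sample was a different animal. The p-values therefore rest on the scatter among these libraries alone, part of which could be technical.

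The labels list soleus and quadriceps, but the files of the 2 muscles held the same values, so the 12 samples amount to 6 libraries, 3 of each genotype. The labels do not settle which muscle these libraries came from, and it was not tested from expression. Cavin1, the targeted gene, had 45.2, 40.0 and 42.2 TPM in wild type, against 0.284, 0.0905 and 0.0254 TPM in knockout. Skeletal muscle transcripts were abundant in both groups: Myh7, the slow myosin heavy chain, ran from 1702 to 2703 TPM in wild type and from 2196 to 3291 TPM in knockout, and Myh2, a fast one, from 1209 to 1610 TPM and from 1203 to 1838 TPM. Transcripts of the mitochondrial genome took 43.0 to 52.3% of wild-type and 39.0 to 45.7% of knockout libraries. On the deposited scale, limma called 4016 of 11056 genes higher in knockout (36.3%) and 323 lower (2.92%) at an adjusted p of at most 0.05. Without wild-type library 2, knockout library 1 or knockout library 3, the 4339 calls of both directions became 2784, 2648 or 2724. The median gene there was higher by a log2 of 0.33, so the members are also given on a trimmed-mean rescaling, which put that median at -0.01 and called 14.2% of genes higher and 13.5% lower.

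The complex sits in the mitochondrial matrix and turns pyruvate into acetyl-CoA, the step that commits carbohydrate carbon to oxidation. Its E1 component, a tetramer of Pdha1 and Pdhb products, decarboxylates pyruvate with thiamine, its E2 core of Dlat product carries the acetyl group on lipoic acid, and the E3-binding protein made from Pdhx anchors the dehydrogenase E3, encoded by Dld. The kinases phosphorylate E1 alpha and stop the complex, and the phosphatases remove the phosphate and restart it. In muscle Pdk4 is the isoform that fasting, fatty acids and glucocorticoids raise, and Pdk2 is the widely expressed one.

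Promoter windows of 250 bases before to 50 bases after the annotated start were taken from RefSeq (GRCm38.p6) for 9 of the 10 members, 11 windows in all. The pair below is shown because these kinases made up most of the kinase transcripts, and the level of Pdk4 fell in knockout while that of Pdk2 did not pass the test. Each is printed 5′ to 3′ on the gene's strand, with matches in capitals. The motifs, searched on both strands, were the CCAAT box (ATTGG on the other strand), the E-box CACGTG, the nuclear receptor half-site AGGTCA, the forkhead box GTAAACA and the D-box TTATGTAA. Pdk4 lies on the minus strand at chr6:5496229-5496528 and Pdk2 on the minus strand at chr11:95041322-95041621.
Pdk4: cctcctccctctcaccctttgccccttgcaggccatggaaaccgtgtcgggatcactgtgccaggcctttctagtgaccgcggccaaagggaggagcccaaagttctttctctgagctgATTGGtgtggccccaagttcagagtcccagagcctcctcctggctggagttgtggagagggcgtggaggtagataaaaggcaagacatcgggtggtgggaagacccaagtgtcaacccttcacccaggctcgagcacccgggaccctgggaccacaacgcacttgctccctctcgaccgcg
Pdk2: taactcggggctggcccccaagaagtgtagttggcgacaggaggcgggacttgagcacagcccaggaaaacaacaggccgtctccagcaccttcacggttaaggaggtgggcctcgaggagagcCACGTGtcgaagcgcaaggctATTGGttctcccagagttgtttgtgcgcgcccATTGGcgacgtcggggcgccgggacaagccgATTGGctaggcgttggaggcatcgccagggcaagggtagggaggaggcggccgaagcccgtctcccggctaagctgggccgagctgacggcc
The Pdk4 window held 1 ATTGG, 131 bases before the start, and was 60.7% G and C. The Pdk2 window printed was 64.7% G and C and held ATTGG at 105, 73 and 42 bases before the start and CACGTG at 126. RefSeq lists a second Pdk2 start, whose window at chr11:95040826-95041125 was 57.7% G and C and held 0 matches to these motifs. CCAAT was present in 1 window each of 5 members (Pdhb, Pdhx, Pdk2, Pdk3 and Pdk4) and in 37.4% of all 32851 promoter windows, and CACGTG in a window each of Pdk2 and Pdpr and in 7.15% of all. The nuclear receptor half-site, the forkhead box and the D-box, which the clock output factors Dbp and Tef bind, were in 0 of the 11 windows, against 16.3%, 3.65% and 0.938% of all. No match says only that these letters are not in these windows.

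On the deposited scale 3 members fell in knockout (Pdk4, Dlat and Pdhx), 2 rose (Pdk3 and Pdp1) and 5 did not pass. Over all genes on that scale 2.92% were called lower and 36.3% higher. After trimmed-mean rescaling, which called 14.2% of all genes higher and 13.5% lower, 5 members were lower (Pdk4 and all 4 subunits) and 0 were higher. A scale set on muscle fibre genes, on which 19.8% of all genes were called higher and 6.91% lower, gave the same counts. The median log2 difference of the 10 was -0.13 on the deposited scale, against 0.33 over all genes. Libraries of the 2 groups did not overlap for 6 members (Pdk4, Pdk3, Dlat, Pdhx, Pdhb and Pdp1), while 53.6% of all genes tested did not overlap.

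**Figure D1:**
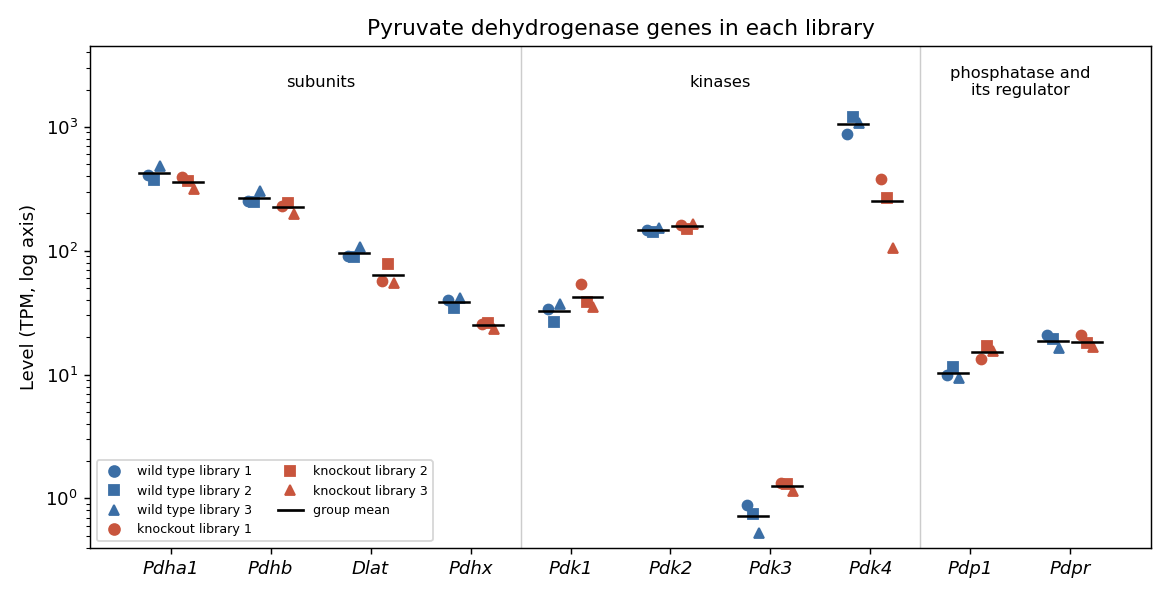
TPM of each member in the 6 libraries, on a log axis, with blue points for wild-type and red points for knockout libraries, a marker shape for each library number and a short line at the mean of each group. Pdk4 runs from 878 to 1194 TPM in wild type and from 104 to 383 TPM in knockout, while both groups of Pdk2 lie between 142 and 163 TPM.

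Among the subunits, Pdha1, the E1 alpha subunit that the kinases phosphorylate, stood at 411, 373 and 484 TPM in wild type and 396, 364 and 315 TPM in knockout. The groups overlapped, with means of 423 ± 56.5 and 358 ± 40.8 TPM (SD, n = 3 each). The log2 difference was -0.24 (95% interval -0.59 to 0.11) and did not pass in limma (adjusted p = 0.244). Pdhb, the E1 beta subunit, was at 250.3, 247 and 304 TPM and at 231, 245 and 199 TPM, so the groups lay apart by a narrow margin. Its log2 difference of -0.25 (95% interval -0.58 to 0.09) did not pass either (limma adjusted p = 0.212). After trimmed-mean rescaling both E1 genes fell, Pdha1 by 0.63 (adjusted p = 0.00474) and Pdhb by 0.64 (adjusted p = 0.00664) on the log2 scale.

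Dlat, the acetyl-carrying E2 core, was at 90.6, 88.2 and 108 TPM in wild type and 56.7, 78.1 and 54.6 TPM in knockout, every knockout library below every wild-type library. The mean fell from 95.5 ± 10.6 to 63.1 ± 13.0 TPM, a log2 difference of -0.60 (SE 0.17, limma adjusted p = 0.0172). Without knockout library 1 or 3 the adjusted p was 0.0581 or 0.0789. Pdhx, the E3-binding protein, was at 39.8, 34.3 and 41.8 TPM and at 25.6, 26.3 and 23.5 TPM, again without overlap. It fell from 38.6 ± 3.87 to 25.1 ± 1.46 TPM (log2 -0.60, SE 0.14, limma adjusted p = 0.00716), with an adjusted p of at most 0.0405 whichever library was left out. Dld, the shared E3 subunit and no member of the set, was at 162, 168 and 189.6 TPM in wild type and at 122, 132 and 114 TPM, a log2 fall of 0.49 (limma adjusted p = 0.0197) that was lost without wild-type library 2 (0.0622) or knockout library 3 (0.0971).

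Ratios within a library do not depend on its scale and are given without a test. Pdha1 per Pdhb was 1.58 ± 0.0674 in wild type and 1.59 ± 0.115 in knockout, and Dlat per Pdhx 2.47 ± 0.172 and 2.51 ± 0.407, overlapping in both cases. E1 to E2 was less even: Pdha1 per Dlat was 4.54, 4.23 and 4.50 in wild type and 6.97, 4.66 and 5.76 in knockout, and Pdhb per Dlat was 2.76, 2.80 and 2.82 against 4.06, 3.13 and 3.65. Both ratios were higher in every knockout library, by 1.31 and 1.29 times in the means.

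**Figure D2:**
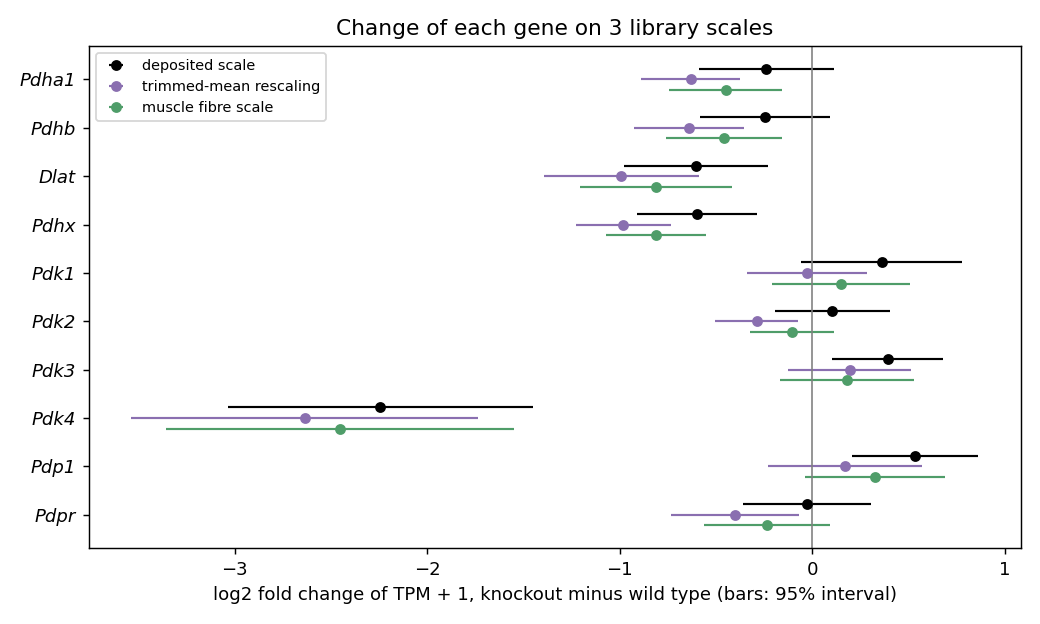
Log2 difference of each member, knockout minus wild type, with its unadjusted 95% interval from limma, on the deposited scale (black), after trimmed-mean rescaling (purple) and on the muscle fibre scale (green). Pdk4 lies farthest from 0 at -2.24, and the intervals of Pdha1, Pdhb, Pdk1, Pdk2 and Pdpr cross 0 on the deposited scale.

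Of the kinases, Pdk4 was at 878, 1194 and 1084 TPM in wild type and at 383, 265 and 104 TPM in knockout. The highest knockout library was under every wild-type one, and the knockout libraries differed widely among themselves (coefficient of variation 55.7%, against 15.2% in wild type). The mean went from 1052 ± 160.1 to 250.5 ± 139.6 TPM and thus fell by 76.2%. The log2 difference was -2.24 (SE 0.36, 95% interval -3.04 to -1.45, limma adjusted p = 0.00071), and the gene ranked 5 of 323 called lower by log2 difference. A two-sided exact permutation test on the gene alone gave p = 0.1, the smallest that 3 libraries against 3 allow. The fall ranged from -2.64 to -1.71 over the settings tried and missed the threshold only when genes of every level entered the fit (adjusted p = 0.0596).

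Pdk2, the kinase with the steadiest level, was at 146, 142 and 153 TPM in wild type and 162, 149.6 and 163 TPM in knockout, with overlapping groups. Its log2 difference of 0.11 (95% interval -0.19 to 0.40) did not pass (limma adjusted p = 0.54) and turned to -0.29 after trimmed-mean rescaling (adjusted p = 0.0537). Pdk1, the isoform that hypoxia induces in many tissues, was at 33.6, 26.7 and 37.5 TPM and at 54.2, 38.4 and 34.8 TPM, also overlapping. The log2 difference was 0.36 (95% interval -0.06 to 0.78, limma adjusted p = 0.143) and -0.02 after rescaling. Pdk3, the kinase best known from testis and brain, was scarce at 0.890, 0.754 and 0.523 TPM in wild type and at 1.33, 1.30 and 1.14 TPM in knockout. Every wild-type library was below 1 TPM, so Pdk3 entered the test only through the knockout libraries, and its rise by 0.39 (limma adjusted p = 0.0355) is not counted as support for a pattern of the set. It was lost on the trimmed-mean scale (adjusted p = 0.34), on the muscle fibre scale (0.417) and without wild-type library 2 (0.0752) or 3 (0.0954).

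The make-up of the kinase transcripts is given without a test and assumes that the values are corrected for transcript length. The 4 kinases summed to 1058, 1363 and 1275 TPM in wild type and to 599.8, 454 and 303 TPM in knockout. Pdk4 held 83.0, 87.6 and 85.0% of that sum in wild type and 63.8, 58.3 and 34.4% in knockout, and Pdk2 held 13.8, 10.4 and 12.0% and then 27.0, 33.0 and 53.7%. In knockout library 3, Pdk2 was the most abundant kinase transcript. Without Pdk4 the sums were 180.1, 169 and 191 TPM in wild type and 217, 189 and 199 TPM in knockout, which overlapped. Kinase transcripts per Pdha1 transcript were 2.57, 3.65 and 2.63 in wild type and 1.52, 1.25 and 0.964 in knockout. Pdk2 per Pdha1 went the other way, 0.354, 0.380 and 0.316 against 0.409, 0.411 and 0.518. These are shares of RNA and say nothing of protein or of kinase activity, which were not measured.

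**Figure D3:**
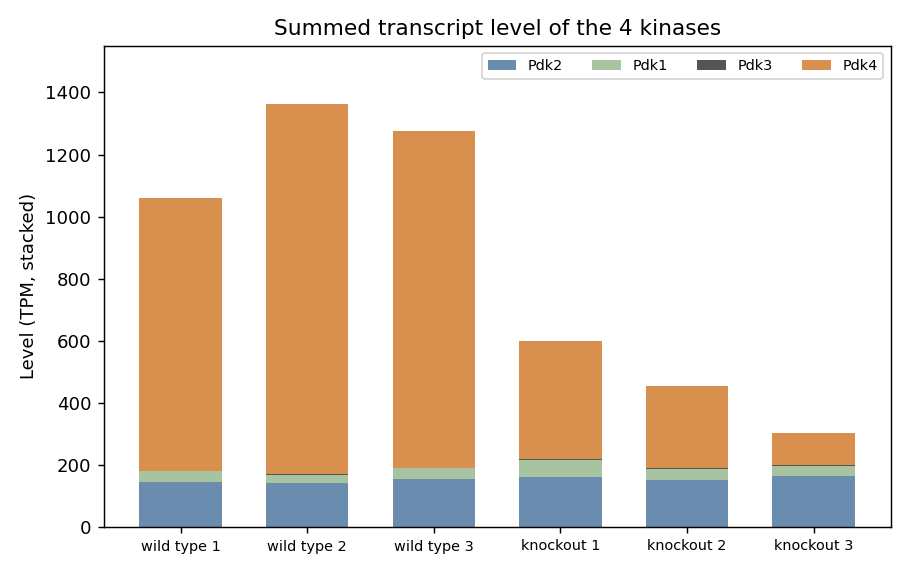
Stacked bars of the TPM of the 4 kinases in each library, with Pdk2 at the base and Pdk4 on top. The bars reach 1058 to 1363 TPM in wild type and 303 to 599.8 TPM in knockout, and the Pdk4 segment is shorter in each knockout bar.

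For the phosphatases, Pdp1, a catalytic subunit that calcium activates in muscle, was at 9.87, 11.5 and 9.31 TPM in wild type and 13.4, 16.9 and 15.5 TPM in knockout, without overlap. It rose from 10.2 ± 1.11 to 15.3 ± 1.78 TPM (log2 0.54, SE 0.15, limma adjusted p = 0.0158) on a scale where the median gene was also higher. Trimmed-mean rescaling left 0.17 (adjusted p = 0.514), and without wild-type library 1 or knockout library 3 the adjusted p was 0.0596 or 0.0543. Pdpr, the regulatory subunit, was at 20.7, 19.2 and 16.4 TPM and at 20.8, 17.9 and 16.6 TPM. The groups overlapped closely (log2 -0.03, 95% interval -0.36 to 0.31, limma adjusted p = 0.901).

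Pdp2, the other catalytic phosphatase and no member of the set, went the opposite way to Pdp1, from 2.72, 2.94 and 2.74 TPM in wild type to 0.757, 1.28 and 0.863 TPM in knockout. It fell by 0.96 on the log2 scale (SE 0.14, limma adjusted p = 0.00038), and the calls held when any library was left out. Knockout libraries 1 and 3 were below 1 TPM and the wild-type libraries alone met the filter. The call is therefore no support for a pattern of the set. Ratios with Pdp2 rest on these low values and are given without a test. Pdp1 per Pdp2 was 3.63, 3.90 and 3.39 in wild type and 17.7, 13.2 and 18.0 in knockout. The Pdp2 share of both went from 21.6 ± 1.17% to 5.89 ± 1.01%. Their sum overlapped between the groups, with 13.0 ± 1.22 TPM for wild type and 16.2 ± 2.04 TPM for knockout. Kinase transcripts per phosphatase transcript were 84.1, 94.7 and 106 in wild type and 42.4, 24.9 and 18.5 in knockout.

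The unit was inferred from the values alone, and comparing genes assumes that it is corrected for transcript length. In order of mean TPM, wild type ran Pdk4, Pdha1, Pdhb, Pdk2, Dlat, Pdhx, Pdk1, Pdpr, Pdp1, Pdk3. Ranges of neighbours overlapped there only for Pdhx and Pdk1. In knockout Pdha1 came first and Pdk4 second, and Pdk1 passed Pdhx. The Pdk4 range there overlapped those of Pdha1, Pdhb and Pdk2, and those of Pdpr and Pdp1 also overlapped.

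The genes whose profile over the 6 libraries lay nearest to that of Pdk4, by the root mean square difference of centred log2(TPM + 1) values among 6328 genes with at least 5 TPM in wild type, were Ucp3 (0.274), Gm33543 (0.488), Acot2 (0.493), Dkk2 (0.497) and Gbp6 (0.505). Ucp3, a mitochondrial carrier of muscle, stood at 33.2, 58.2 and 39.4 TPM in wild type and 21.7, 8.05 and 3.09 TPM in knockout. As with Pdk4, wild-type library 2 was the highest and knockout library 3 the lowest, a likeness that the choice by profile favours. Pdk4 per Ucp3 was 26.4, 20.5 and 27.5 in wild type and 17.6, 32.9 and 33.8 in knockout, with overlap, over the same 6 libraries that chose the gene.

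**Figure D4:**
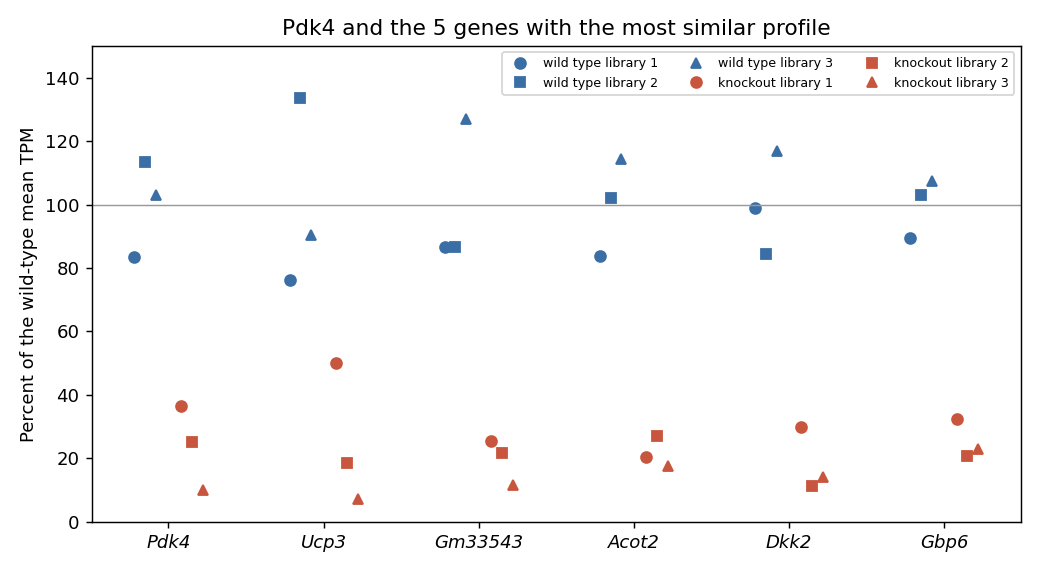
TPM of Pdk4 and of the 5 nearest genes in each of the 6 libraries, as a percent of the gene's own wild-type mean (grey line), with blue points for wild type, red for knockout and a marker shape for each library number. Every knockout point is below every wild-type point of its gene, which the choice of genes by likeness to Pdk4 favours. Pdk4, Ucp3, Gm33543 and Acot2 are each lowest in knockout library 3, and Dkk2 and Gbp6 in knockout library 2.

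Around the complex, 3 of 5 tested genes of the pyruvate carrier and remaining complex genes fell and 0 rose: Pdp2, Dld and Mpc2, a subunit of the mitochondrial pyruvate carrier (415 ± 79.9 to 228 ± 45.3 TPM, log2 -0.86, limma adjusted p = 0.00508). Pdp2, which the wild-type libraries alone carried past the filter, is no support. The Mpc2 call was lost without both knockout library 1 and wild-type library 2 (0.0659). Its partner Mpc1 was at 595 ± 119.1 and 473 ± 52.3 TPM and did not pass. None of 6 tested genes for lipoic acid and thiamine supply passed. Of 8 genes of the sister ketoacid dehydrogenases 1 fell, Dlst, the E2 core of the oxoglutarate complex (log2 -0.60, limma adjusted p = 0.0101), and the call was lost without knockout library 3 (0.0517). Of 9 genes of lactate and pyruvate fates, Ldhb, the heart-type lactate dehydrogenase, fell from 1024 ± 164 to 498 ± 68.8 TPM, Gpt, an alanine aminotransferase, fell by 0.87, and Me2, a malic enzyme, rose by 0.57 on the log2 scale. Downstream, 2 of 7 genes of citric acid cycle entry fell, Idh3a (log2 -0.75) and Cs (log2 -0.43), and 0 rose. The count was 1 without wild-type library 1 or 2 or knockout library 1 or 3. After trimmed-mean rescaling, the genes called lower were 4 of 5 in the first of these lists and 2 of 6 for cofactors. They were 6 of 8, 3 of 9 and 6 of 7 in the lists that followed, and 0 were higher, Me2 included. Over all genes 2.92% were called lower and 36.3% higher on the deposited scale, and 13.5% and 14.2% after rescaling.

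Fatty acid oxidation, the competing source of acetyl-CoA, had 12 of 18 genes lower and 0 higher, among them Etfdh (log2 -0.93), Slc25a20 (log2 -0.73), Fabp3 (log2 -0.98) and Cpt1b (log2 -0.74). Of 9 tested genes that fasting or PPAR agonists are known to raise with Pdk4 in muscle, 6 fell and 0 rose. Acot2, a mitochondrial thioesterase, went from 40.5 ± 6.25 to 8.76 ± 1.99 TPM (log2 -2.10), and Plin5, a lipid droplet protein, from 43.0 ± 6.59 to 14.1 ± 1.74 TPM (log2 -1.53). Acot1 fell by 1.32 and Slc25a34 fell by 0.82. Angptl4, another such gene, did not pass, at 3.37, 3.93 and 3.33 TPM in wild type and 5.66, 1.78 and 0.897 TPM in knockout. After trimmed-mean rescaling 18 of 18 and 7 of 9 genes of these lists were lower. With 1 library left out, 10 to 11 of 18 and 5 to 7 of 9 were lower on the deposited scale. Without a filter, when 171 of 21936 genes were called lower, the counts were 5 of 18 and 3 of 10. The shares called lower can be read against 2.92% of all genes on the deposited scale and 13.5% after rescaling. Nothing particular to these lists is drawn from them.

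**Figure D5:**
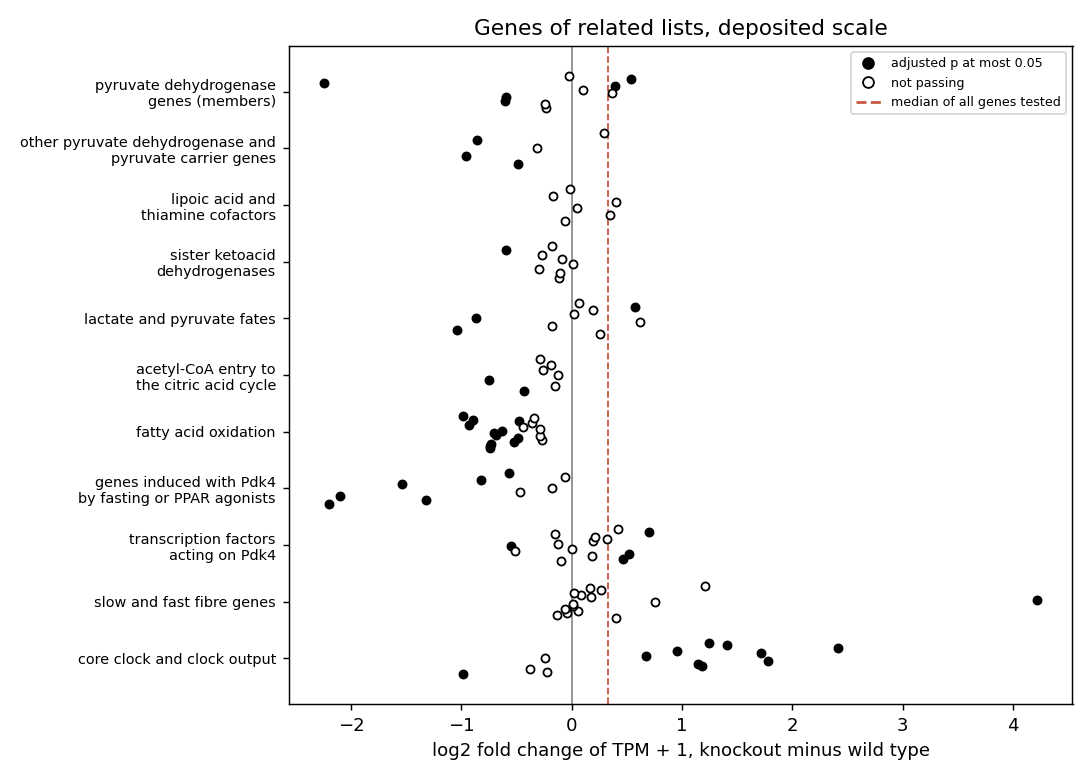
Log2 differences, knockout minus wild type, of the members and of the tested genes of 10 related lists on the deposited scale, filled where the limma adjusted p was at most 0.05, with a dashed line at 0.33, the median of all genes. Fatty acid oxidation and the genes raised with Pdk4 lie to the left of that line, and most clock genes to its right.

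On the deposited scale 36.3% of all genes were called higher and 2.92% lower. Among 14 tested transcription factors and coactivators known to act on Pdk4, Cebpb (log2 0.70), Rxra (log2 0.52) and Ppard (log2 0.47) rose. Of the 14, Esrra, the estrogen-related receptor alpha, fell (73.5 ± 7.35 to 49.9 ± 3.80 TPM, log2 -0.55, limma adjusted p = 0.0121). The 3 that rose did not pass after trimmed-mean rescaling, which called 2 of the 14 lower. These were Esrra and Ppargc1a (log2 -0.86, limma adjusted p = 0.0265, against 0.066 on the deposited scale). On the deposited scale the number rising was 0 without wild-type library 1 or knockout library 3. It was 1 without wild-type library 2 or 3 or knockout library 1, and 4 without knockout library 2. The Esrra call was lost without knockout library 3 (0.0612). Ppara, the fatty acid receptor, was at 7.56 ± 1.02 and 7.07 ± 1.43 TPM, and Foxo1, the fasting-activated forkhead factor, at 3.69 ± 0.874 and 4.44 ± 1.38 TPM, and neither passed. Of 13 clock genes 9 were called higher and 1 lower, and 7 and 4 after trimmed-mean rescaling, which called 14.2% of all genes higher and 13.5% lower. Per2 and Per3, both among the 9, were below 1 TPM in every wild-type library and entered the test only through the knockout libraries, so their calls are no support. Without knockout library 1 both left the test, and 6 of the 11 genes still tested were called higher. The core activator Arntl went from 19.6 ± 1.28 to 9.54 ± 2.05 TPM, and the output factor Dbp was at 3.08, 1.88 and 3.49 TPM in wild type and 12.0, 27.0 and 20.7 TPM in knockout. The time of day of sampling is not given in the sources used here, and its part in the level of Pdk4 was not tested.

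Several lists of markers of other cells moved with the groups, on a scale where 36.3% of all genes were called higher and 2.92% lower. The 10 macrophage markers were called higher, with a summed level of 38.6 to 46.0 TPM in wild type and 195 to 244 TPM in knockout. One of them, Adgre1, was below 1 TPM in every wild-type library and entered the test only through the knockout libraries. Without any 1 knockout library it left the test, and the 9 others were called higher. All 8 fibroblast markers rose, with sums of 289 to 313 TPM in wild type and 855 to 911 TPM in knockout. Of 6 endothelial markers 5 rose and 1 fell. None of the 4 tested adipocyte markers passed, at 23.8 to 54.7 and 21.5 to 96.9 TPM, while all 4 rose without knockout library 2. Their part in the member values was not tested, and in bulk tissue fewer cells of a type and less RNA per cell cannot be told apart. Of 15 slow and fast fibre genes 1 passed, Myh4, the fastest myosin, at 6.43, 193.5 and 4.21 TPM in wild type and 238, 580.1 and 346 TPM in knockout, so wild-type library 2 stood apart from the other two. The fibre genes called higher were 3 without wild-type library 2, 2 without knockout library 1 or 2, and 3 without both knockout library 1 and wild-type library 2. After trimmed-mean rescaling Myh4 did not pass (adjusted p = 0.0511). Without both knockout library 1 and wild-type library 2, Pdk4, Pdhx and Pdp1 were still called, and Dlat was not (adjusted p = 0.0876).

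The positions come from GENCODE mouse release 21 on GRCm38. Pdk4 spans 5483351 to 5496309 of chromosome 6 and Pdk2 spans 95026258 to 95041354 of chromosome 11, both on the minus strand, and Dlat and Pdhx lie on chromosomes 9 and 2. Pdk2 overlaps the antisense gene Gm11513, Pdha1 overlaps Map3k15 and Pdpr overlaps 9430091E24Rik, each on the opposite strand. These overlaps are of whole gene spans, and overlap of exons was not examined. Whether the authors' quantification used strand is not given in the sources used here. Whether reads of these pairs could be mixed was therefore not tested.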

How the data were processed

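PolyA RNA was isolated with TRIzol and made into libraries with a NEBNext Ultra kit, per the labels' protocols. The submitters' processing notes name kallisto 0.43.0, STAR 2.5.3a, mm10 and GRCm38, giving no role to any. The deposited values were taken as TPM from the values alone, since they are fractional and sum to 843194 to 872482 per library. TPM keeps no read depth, so depth and counting intervals are not given, and as a share it moves when abundant transcripts change. Quadriceps files repeated the soleus files and were not counted again.

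The 11056 genes that reached 1 TPM in 3 or more libraries entered limma 3.58.1 (R 4.3.3, trend option) as log2(TPM + 1). P-values were Benjamini-Hochberg adjusted over all of them, with a threshold of 0.05 and 4 residual degrees of freedom. Differences are on that scale and understate changes of low genes. The test was tested on simulated data. Alternatives were 18, including trimmed-mean rescaling (which trimmed 30% of ratios, 5% of levels), a scale on 15 muscle fibre genes, other filters and pseudocounts, and left-out libraries. Named genes were the members, Dld and Pdp2, up to 4 passing genes of each list with the smallest adjusted p, and the 5 nearest profiles to Pdk4. Other genes (Mpc1, Ppara, Ppargc1a, Foxo1, Angptl4, Arntl, Per2, Adgre1 and the myosins) were chosen after their values were seen. The members and lists were chosen with earlier results of these data known, among them the fall of Pdk4, which is no independent support.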

Additional observations from a re-analysis of the deposited data

How the results depend on the processing

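With 4339 genes called as reported, quantile normalization called 2823, no filter 2771, a 10 TPM filter 1839, the fit without both knockout library 1 and wild-type library 2 called 1886, and 912 also had a log2 difference of 1 or more in size. Leaving out 1 library gave 2648 to 4458. Members called higher went from 2 to 0 on the quantile, trimmed-mean, nuclear-only and muscle fibre scales, without a filter and at a log2 of at least 1. They were 1 with the 10 TPM filter and in the fit lacking both of those libraries, and 0 to 1 with 1 library left out. Members called lower went from 3 to 5 on those 4 scales, and to 1 without a filter and at a log2 of at least 1. They were 2 to 3 with 1 library left out. Calls over all genes moved too. Of 11056 genes, quantile normalization called 1373 higher and 1450 lower, and the muscle fibre scale 2193 and 764. Trimmed-mean rescaling called 1561 and 1479 of 10981, and the nuclear-only scale 2850 and 777 of 12132. Without a filter 2600 and 171 of 21936 were called, and 861 and 51 of 11056 at a log2 of at least 1. The 10 TPM filter gave 1616 and 223 of 4887. The Pdk4 difference of -2.24 was unchanged without a filter but missed the threshold. Its log2 difference was otherwise called in 17 of 18 alternatives. Signs turned for Pdk1 with trimmed-mean rescaling (-0.0242), for Pdk2 with quantile (-0.0968), trimmed-mean (-0.287), nuclear-only (-0.0951) and muscle fibre (-0.105) scales, for Pdk3 with quantile normalization (-0.0331), and for Pdpr without wild-type library 1 (0.0444) or knockout library 3 (0.0449), in a range of -0.114 to 0.0449 with 1 library left out. Foxo1 turned with quantile (-0.231), trimmed-mean (-0.122) and muscle fibre (-0.0156) scales, and Ppara ran from -0.222 to 0.0347 with 1 library left out. The cause of each was not tested. Same-numbered samples did not deviate together (correlations 0.0283, -0.00808 and 0.0369), and those of different numbers ran from -0.135 to 0.0984. No pairing by number was seen, though weak pairing or pairing in few genes would not show in these values. A fit with the replicate number as a block called 4373 genes, with 2 members higher and 3 lower. Depth is unknown, which limits what can be said of Pdk3, the scarcest member, and Pdk3 was not tested without a knockout library.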
